A study of Drosophila melanogaster with 19 samples.

Results

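Among transcripts with abundant Piwi-bound small RNA in Drosophila ovarian somatic cells, 62 took a larger share of Armitage (Armi) crosslinking reads, and not a smaller one, when Yb was knocked down. They are described here in the measurements that did not select them. They were selected on Armi iCLIP values of control KD and Yb KD cells and on Piwi-bound RNA of untreated cells, from the High piRNA class of the deposited tables (238 of 12013 transcripts with a symbol): kept were those whose Armi iCLIP value was at least 0.5 higher in Yb KD than in control KD on the log2(RPM + 1) scale, where RPM is a transcript's reads scaled to the size of the library. Transcripts on chromosome 4 or unplaced sequence and Imp, sqd and 14-3-3zeta were set aside, which left 225 High transcripts. Of these, 113 changed by -0.5 or less on that scale and are called the High transcripts with less Armi, and 50 lay between both limits. Xrp1, zfh1 and chinmo are among the 62, as are armi itself, AGO1, Dcr-2, tud, Hrb27C, ptc and kay. All 62 averaged 5 RPM or more in each comparison below, the minimum for testing.

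The study asked what Armi and Yb each contribute to making transposon-targeting piRNAs in OSC, a cultured line of somatic ovarian cells. Armi-bound RNA was read by FAST-iCLIP, in which RNA crosslinked to the protein by UV is trimmed, recovered with an antibody and sequenced, in untreated cells (2 libraries), in cells with EGFP RNAi, called control KD (2 libraries), and in cells with Yb RNAi (2 libraries). Myc-tagged Armi was recovered with an anti-Myc antibody from cells transfected with the wild-type protein (WT) or with the single substitutions D862A or R949A, in 2 libraries each. Armi CLIPPARE, in which an adapter is joined to the 5′ ends of bound RNA before nuclease digestion, was made from control KD (EGFP RNAi) and Zuc KD (Zuc RNAi) cells with 2 libraries each, and Piwi-bound small RNA was sequenced once each from untreated, control KD and Yb KD cells. All groups are the same cell line, and nothing in the labels says that replicates came from separate cultures. The labels name only a transfection for Myc-Armi, so the cells' own Armi is not stated to have been removed. The second knockdown library of Piwi-bound small RNA is titled Yb KD, but its genotype entry names EGFP RNAi, and the antibody entry of both Piwi knockdown libraries is anti-Myc although Piwi itself is what the protocol says was recovered; it is called the library labelled Yb KD.

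Piwi-interacting RNAs guide Piwi proteins to silence transposons. In the somatic cells of the fly ovary, the RNA helicase Armi binds precursor transcripts, Yb gathers Armi into perinuclear Yb bodies, and the nuclease Zucchini (Zuc) cuts the precursors into phased fragments that are loaded onto Piwi. Besides the flamenco cluster, messenger RNAs such as that of traffic jam (tj) give rise to such small RNAs, mostly from their 3′ untranslated regions.

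The value that selected the transcripts is given as a description. It ran from 0.52 for tud (222 RPM in control KD and 319 in Yb KD), pgant5 at 0.57, Pino at 0.58 and Tollo at 0.59 up to 3.48 for Xrp1 (66.8 and 756 RPM). Just outside the limit lay CG34449 at 0.49, l(3)L1231 at 0.48, CG32479 at 0.45 and Unr at 0.45. Of the 4039 transcripts that averaged 5 RPM or more over these columns, 81.7% passed the same limit, so a gain by this value was common in the table. The 4 High transcripts past the limit that the rule set aside were Imp, sqd, 14-3-3zeta and unc-13. The class is a cut on Piwi-bound RNA in untreated cells too: the 238 High transcripts held 101 to 2958 RPM there, the Middle class at most 99.99 and the Low class at most 19.6.

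No table of total RNA was used, so in every comparison a change in transcript amount, in the number of cells and in binding per transcript cannot be told apart. The values are shares of a library. The transcripts of the tables held 18.6% of the implied reads of the Piwi control KD library and 54.7% of those of the library labelled Yb KD, and 33.2% in WT against 63.3 and 63.8% in D862A and R949A, and most transcripts were higher in the second column of each pair. The implied total of a library or column ran from 0.813 M to 10.4 M reads (M, mega). The follicle cell marker tj stood at 3040.5 and 2754 RPM in untreated Armi iCLIP, and the germline markers osk, nos, aub, AGO3 and bam were at 3 RPM or less there, with krimp and spn-E of the same list at 21.1 and 15.1 and at 198 and 193. Of the other follicle and somatic gonad genes, zfh1 stood at 114 and 122 RPM, and bab1, Fas3, so and eya were low, between 1.29 and 5.88. The rest of that list were fs(1)Yb at 214 and 229, shg at 41.2 and 32.6, and bab2 at 21.4 and 19.5. The 6 hemocyte markers in the table summed to 48.5 and 52.4 RPM, with the defining markers Hml and He at 0. Most of that sum was crq, a High class transcript, at 35.1 and 34.7. srp had 7.46 and 10.3 RPM, ush 4.16 and 4.60, and Pxn 1.72 and 2.80. Ratios between single columns carry exact binomial 95% intervals, which cover counting error only, since reads amplified by PCR are not independent molecules and libraries made once have no replicate check.

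In untreated cells the 62 transcripts spanned a wide range of Armi signal, from dp, a giant extracellular matrix protein, at 2.72 and 3.14 RPM in the 2 libraries, to Hrb27C, an hnRNP protein that binds messenger RNA, at 1067 and 985. The libraries were close to each other, with a median SD of 6.37% of the mean over the 62. The largest SD was that of Rab6, a Golgi GTPase with 18.2 and 13.2 RPM, at 22.4% of its mean. Xrp1, a bZIP transcription factor known from the removal of weaker cells in cell competition, had 80.0 ± 10.1 RPM (SD, n = 2), and zfh1, a zinc finger and homeodomain repressor of somatic gonad cells, had 118 ± 6.08. The 62 together made up 5.79 and 5.76% of the table's reads in Armi iCLIP and 9.004% (95% interval 8.89 to 9.11%) in Piwi-bound RNA. Per transcript, the log2 ratio of Piwi-bound to Armi-bound RPM had a median of 0.44, against -0.66 over 3189 transcripts tested, and 52 of 62 lay above the table median, which 50% of all did. Since the class was cut on the same Piwi library, nothing is read from that count. Within the 62 the ratio ran from -1.79 for Hrb27C to 4.88 for dp, with lama, known as lamina ancestor, at 3.27 (135 and 127 RPM with Armi and 1276 with Piwi).

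Piwi-bound small RNA of these transcripts was higher in the library labelled Yb KD than in the control KD library. By the values as given 60 of 62 were higher, with an interval above 1 for all 60, and 93.6% of the 4924 transcripts tested were higher. The median was 3.20-fold for the 62 and 4.01-fold over all tested. At least 2-fold higher were 47 of 62 (81.8% of all tested), and at least 2-fold lower was none (2.23%). The group's share of the table's reads went from 9.10% (8.95 to 9.24%) to 11.3% (11.26 to 11.44%). Set against the table's own shift, 20 of 62 lay above the table median (49.7% of all tested), none lay 2-fold above it (12.5%) and 15 lay 2-fold below it (18.2%). That median depends on the low-abundance transcripts: with a pseudocount of 5 RPM 34 of 62 were above it, and with no filter 57.

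The largest ratio was that of LanA, the laminin alpha chain of the basement membrane. It had 262 RPM in control KD against 2055 in the library labelled Yb KD, or 7.84-fold (6.80 to 9.08). zfh1 followed with 224 and 1661 RPM, a 7.41-fold ratio (6.35 to 8.70), and Xrp1 with 612 and 4019.5 RPM, 6.57-fold (5.98 to 7.23). The intervals of these 3 overlapped, so their order is not resolved. Smr, a co-repressor that binds nuclear receptors, went from 181 to 1111 RPM, and chinmo, a BTB zinc finger regulator that maintains somatic stem cells in the testis, from 700.2 to 4201 RPM. CG12290 went from 174 to 998 RPM, 5.75-fold (4.81 to 6.93). At the other end only CG6701 and the heat shock factor Hsf were not higher. CG6701 had 154 and 121 RPM, a ratio of 0.785 (0.599 to 1.03), and Hsf 96.0 and 93.7, a ratio of 0.977 (0.706 to 1.35); both intervals span 1. CG2765, CG4452, CG18446 (Lime) and the SNARE protein Snap24 were the next smallest, at 1.40, 1.44, 1.44 and 1.52-fold.

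**Figure D1:**
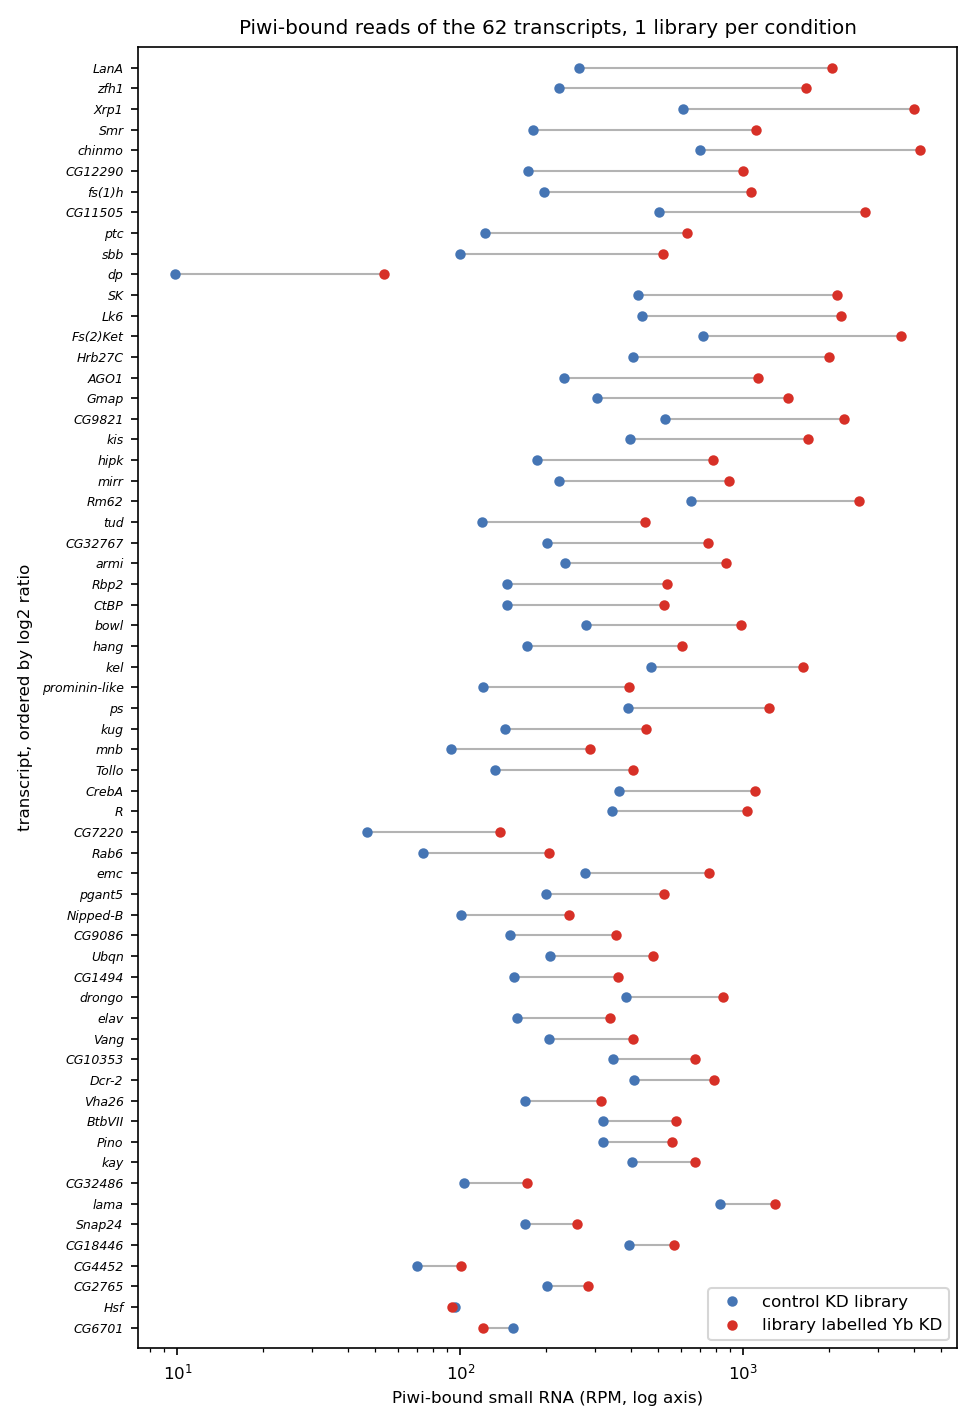
Piwi-bound small RNA (RPM, log axis) of each of the 62 transcripts in the control KD library and the library labelled Yb KD, 1 library each, ordered by log2 ratio. The point of the library labelled Yb KD lies to the right for 60 transcripts, from LanA at the top (262 and 2055 RPM) down to CG6701, where it lies to the left (154 and 121).

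The untreated and control KD Piwi libraries, neither with a piRNA factor targeted, also differed from each other. In control KD, 14 of 62 were at least 2-fold higher than in untreated cells (47.2% of 3052 tested) and 4 at least 2-fold lower (3.96%). Of the 50 High transcripts between both limits, 6 were at least 2-fold higher and 1 lower. Of the 113 with less Armi, 6 were higher and 21 lower. The High class was cut on this untreated library, so nothing is read from these counts. Xrp1 was the highest by this ratio, with 108 RPM in untreated cells and 612 in control KD, both below the 4019.5 of the library labelled Yb KD. dp was the lowest, with 115 RPM in untreated cells and 9.84 in control KD, and CtBP, a co-repressor, had 676 and 146 RPM. Against both libraries at once, 57 of 62 were higher in the library labelled Yb KD (92.2% of 4924 tested), as were 40 of the 50 High transcripts between both limits and 10 of the 113 with less Armi. dp and CtBP are 2 of the 5 that were not, with 53.9 and 523 RPM there. The count against both libraries uses the untreated library too, so it carries the same limit.

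Between control KD and the library labelled Yb KD, the High transcripts with less Armi were mostly lower, and those between both limits mostly higher. Of the 113 High transcripts with less Armi, 18 were higher in the library labelled Yb KD and 50 were at least 2-fold lower, with a median log2 ratio of -0.80 against 1.68 for the 62. Their share of the table's reads went from 24.9 to 4.83%. The 50 between both limits had a median of 0.76, and 42 of them were higher. These groups were split on Armi signal in the Yb KD and control KD iCLIP columns, and the Piwi libraries are titled as the same 2 knockdowns, so the order of the groups is a description and was not tested.

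**Figure D2:**
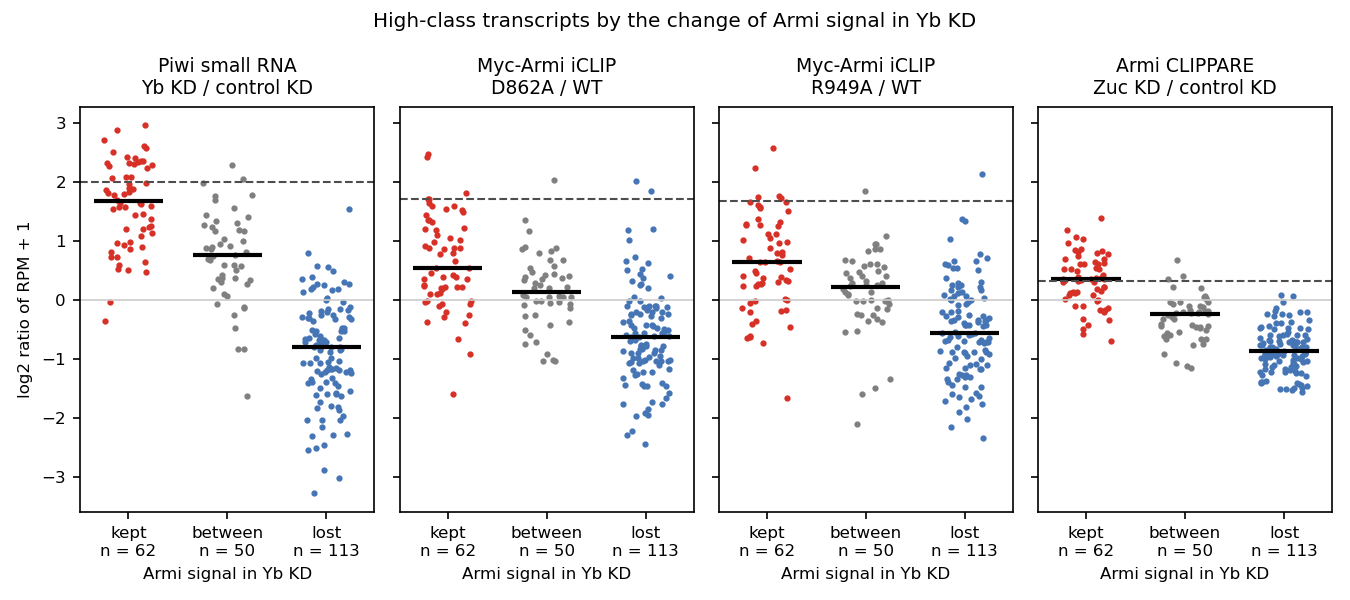
Log2 ratios of RPM + 1 for the 62 High transcripts with more Armi in Yb KD, the 50 between and the 113 with less Armi, in Piwi-bound RNA (library labelled Yb KD over control KD), Myc-Armi iCLIP (D862A and R949A, each over WT) and Armi CLIPPARE (Zuc KD over control KD); each point is a transcript, black bars are group medians and dashed lines the median of all transcripts tested. The medians of the 62 are 1.68, 0.55, 0.65 and 0.35, and those of the 113 are -0.80, -0.62, -0.55 and -0.87.

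In Myc-Armi iCLIP the 62 transcripts were mostly higher with the D862A and R949A proteins than with WT, but by less than most of the table. These 2 comparisons share the WT column, and each condition has 1 column. In D862A 48 of 62 were higher than in WT (86.7% of 4585 tested), 21 at least 2-fold (67.6%), and 1 was at least 2-fold lower (4.23%). In R949A 48 were higher (86.8% of 4473), 21 at least 2-fold (67.2%), and 1 was at least 2-fold lower (4.81%). The median log2 ratio of the 62 was 0.55 in D862A and 0.65 in R949A, against 1.73 and 1.68 over all tested. For the 50 High transcripts between both limits it was lower still, at 0.15 in D862A and 0.22 in R949A. Of these 50, 42 lay at least 2-fold below the table median in each mutant. Middle class transcripts reached 0.77 in D862A and 0.80 in R949A. A rise smaller than that of the table was therefore not particular to the 62. Differences between these classes were not tested. Above the table median were 3 of 62 in D862A and 5 in R949A (50% of all tested in each), while 33 and 34 were at least 2-fold below it (26.3 and 25.3%) and none 2-fold above (26.7 and 26.3%). With a filter of 20 RPM the counts above the median became 11 of 61 in each, and with no filter 48 of 62 in each. The group's share of the table's reads went from 12.9% in WT to 9.60% in D862A and 9.57% in R949A, and that of the High transcripts with less Armi from 18.0 to 6.33 and 6.76%.

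D862A and R949A gave nearly the same value for each transcript. The log2 difference of R949A minus D862A ran from -0.38 to 0.36 over the 62, and all 62 lay within 0.5, as did 76.6% of the 4963 transcripts tested. The highest ratios were those of CG4452, with 24.0 RPM in WT, 138 in D862A and 149 in R949A, and of mirr, with 91.2, 494 and 434. For mirr, an Iroquois homeodomain factor that patterns the follicle cells, these were 5.42-fold (4.74 to 6.22) in D862A and 4.76-fold (4.16 to 5.47) in R949A. CG32486 had 46.4, 166 and 156 RPM, and ptc, the Hedgehog receptor, 130.5, 434 and 445. In each of these 4 both mutant columns were above WT. Xrp1 had 247 RPM in WT, 714 in D862A (2.89-fold, 2.66 to 3.15) and 642 in R949A (2.60-fold, 2.39 to 2.83), which placed it 10th and 12th of 62.

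Some members were lower in both mutants. kug, the atypical cadherin Fat2 that guides follicle cell rotation, had 314 RPM in WT, 103 in D862A and 98.6 in R949A. It was 3.03-fold lower (2.73 to 3.37) and 3.18-fold lower (2.85 to 3.55), and it alone was past 2-fold in each. CG6701 had 239, 126 and 155 RPM, tud, a founding Tudor domain protein of germ plasm, 362, 229 and 236, and ps, an RNA-binding splicing regulator, 1774, 1349 and 1383. CG10353 (221, 180.4 and 142 RPM) and CG1494 (69.9, 58.8 and 51.1) also lay below WT in both, as did dp, whose low counts (15.7, 11.95 and 9.12 RPM) leave an interval of 0.511 to 1.15 for D862A. armi itself had 5235, 5157 and 3951 RPM, against 148 and 133 in untreated Armi iCLIP. Cells of all 3 conditions were transfected with Armi, and whether the reads came from the transfected or the cells' own transcript was not tested. armi made up 12.2% of the 62 transcripts' RPM in WT, and without it their share of the table was 11.5, 8.86 and 9.004%.

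**Figure D3:**
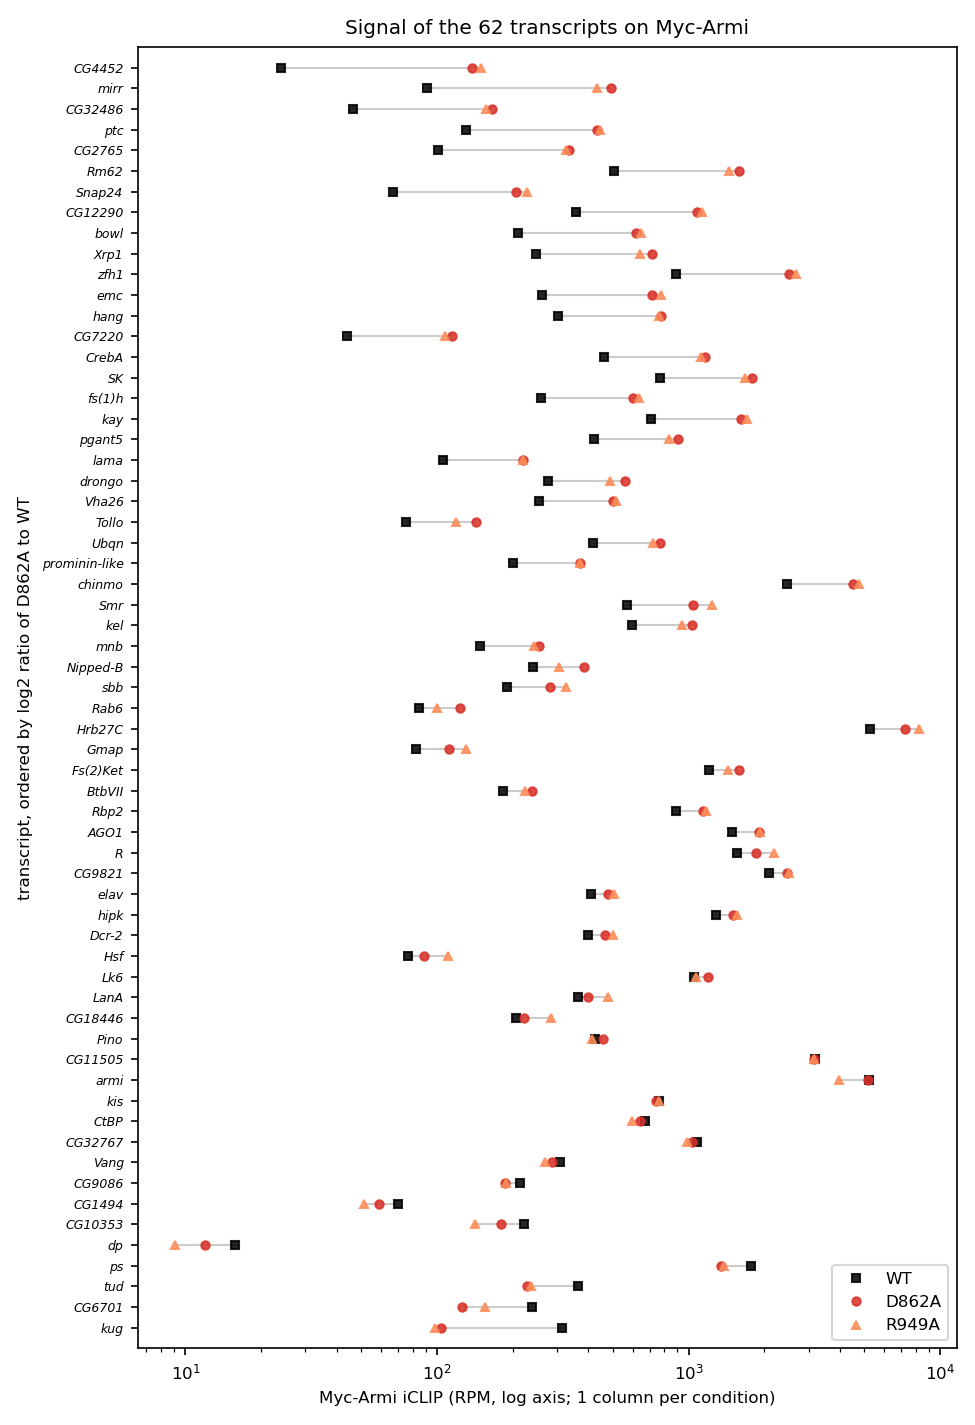
Myc-Armi iCLIP signal (RPM, log axis) of each of the 62 transcripts with WT, D862A and R949A Armi, 1 column per condition. The D862A and R949A points lie close to each other for every transcript and above WT for most, with CG4452 (24.0, 138 and 149) and kug (314, 103 and 98.6) at opposite ends.

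In Armi CLIPPARE the 5′ ends of 2 of the 62 transcripts rose in Zuc KD and none fell, by limma at an adjusted p of 0.05 over 4006 transcripts, of which 11.8% rose and 2.77% fell. Both that rose are transcription factors, chinmo and zfh1. At an unadjusted p under 0.05, 10 of 62 were higher (24.4% of all tested) and 0 lower (6.14%). The median log2 change of the 62 was 0.35 against 0.33 over all tested, and it ran from -0.69 to 1.40. The Zuc KD libraries both lay above both control libraries for 27 of 62 (47.6% of all tested), both below for 6 (12.9%) and overlapped for 29. Among the 113 High transcripts with less Armi, 33 fell and none rose (69 lower and 0 higher at an unadjusted p under 0.05), with a median of -0.87. Among the 50 between, 3 fell. The difference between these groups was not tested.

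The control KD libraries stood apart from each other. Control replicate 2 was above replicate 1 for 61 of the 62 transcripts, by a median of 0.69 on the log2 scale, against 0.03 between the Zuc KD libraries. Between the control libraries the median was 0.48 over all transcripts averaging 5 RPM or more there, and 0.81 over the High class. The shift was therefore not particular to the 62. The median SD over the 62 was 33.4% of the mean in control KD and 4.15% in Zuc KD. With each library centred on its median, 5 of the 62 rose (chinmo, zfh1, SK, CG12290 and Xrp1; 9.46% of all tested rose) and 6 fell (Nipped-B, Tollo, Dcr-2, tud, kug and CG6701; 14.2%), with a median of 0.02 for the 62. edgeR (11.3 and 13.7% of all tested) and DESeq2 (5.82 and 10.9%) on the recovered reads called the same 5 and 6 transcripts. Without control replicate 1, 13 rose (17.7% of all tested) and 14 fell (15.8%). Without control replicate 2, 47 rose (44.5%) and 2 fell (4.59%), and without either Zuc KD library none was called.

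chinmo had 167 and 281 RPM in control KD and 576 and 568 in Zuc KD, a log2 change of 1.40 (SE 0.433, limma adjusted p = 0.0163). zfh1 had 106 and 162 RPM in control KD and 297 and 301 in Zuc KD, a change of 1.18 (SE 0.402, adjusted p = 0.0305). For both, the lower Zuc KD library lay well above the higher control. Xrp1 had 189 and 224 RPM in control KD and 461 and 391 in Zuc KD, without overlap, but its change of 1.04 (SE 0.423) did not pass the test (limma adjusted p = 0.0747, and 0.0296 with libraries centred). SK, a calcium-activated potassium channel, stood likewise at 128 and 161 RPM in control KD and 322 and 282 in Zuc KD (adjusted p = 0.0554, centred 0.0203). CG12290 gave 117 and 177 RPM in control KD and 270.3 and 297 in Zuc KD (adjusted p = 0.0798, centred 0.0316). The Zuc KD values of all 5 lay above both controls.

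The 6 that lay below both controls did not pass limma's test with values as deposited and all libraries, and did with libraries centred. Nipped-B, the loader of cohesin onto chromatin, had 131 and 143 RPM in control KD and 84.2 and 84.4 in Zuc KD, a log2 change of -0.69 (limma adjusted p = 0.193, centred 0.00297). Tollo, a Toll family receptor, had 143 and 192 RPM in control KD and 111 and 110.2 in Zuc KD (centred adjusted p = 0.00470). Dcr-2, which makes small interfering RNAs, had 281 and 414 RPM in control KD and 253 and 232 in Zuc KD (centred adjusted p = 0.0114). All 3 were lower in each Zuc KD library than in either control. The remaining 3, tud, kug and CG6701, had changes of -0.43, -0.34 and -0.32, and these 3 are also among the lowest of the 62 in both Myc-Armi mutants.

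**Figure D4:**
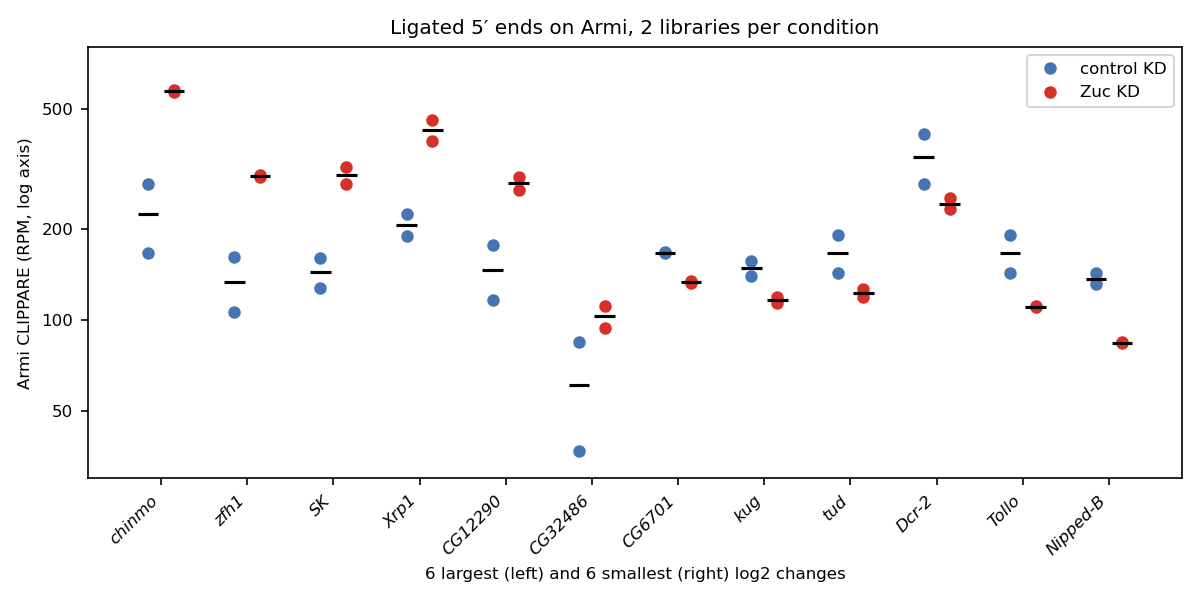
Armi CLIPPARE signal (RPM, log axis) in the 2 control KD and 2 Zuc KD libraries for the 6 of the 62 transcripts with the largest and the 6 with the smallest log2 change. chinmo (167 and 281 RPM against 576 and 568) shows the largest gap with Zuc KD above, and Nipped-B (131 and 143 against 84.2 and 84.4) the largest with Zuc KD below.

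Across the 62, the Spearman correlation between the Piwi ratio of the library labelled Yb KD to control KD and the Zuc KD change in CLIPPARE was 0.58. It was 0.61 over the 3265 transcripts tested in both and also in D862A against WT, and 0.08 over the 113 High transcripts with less Armi. The Piwi and D862A ratios had a correlation of 0.03 across the 62, against 0.36 over the 3265 transcripts and 0.43 over the 113. These are correlations across transcripts, which are not independent replicates and share libraries.

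**Figure D5:**
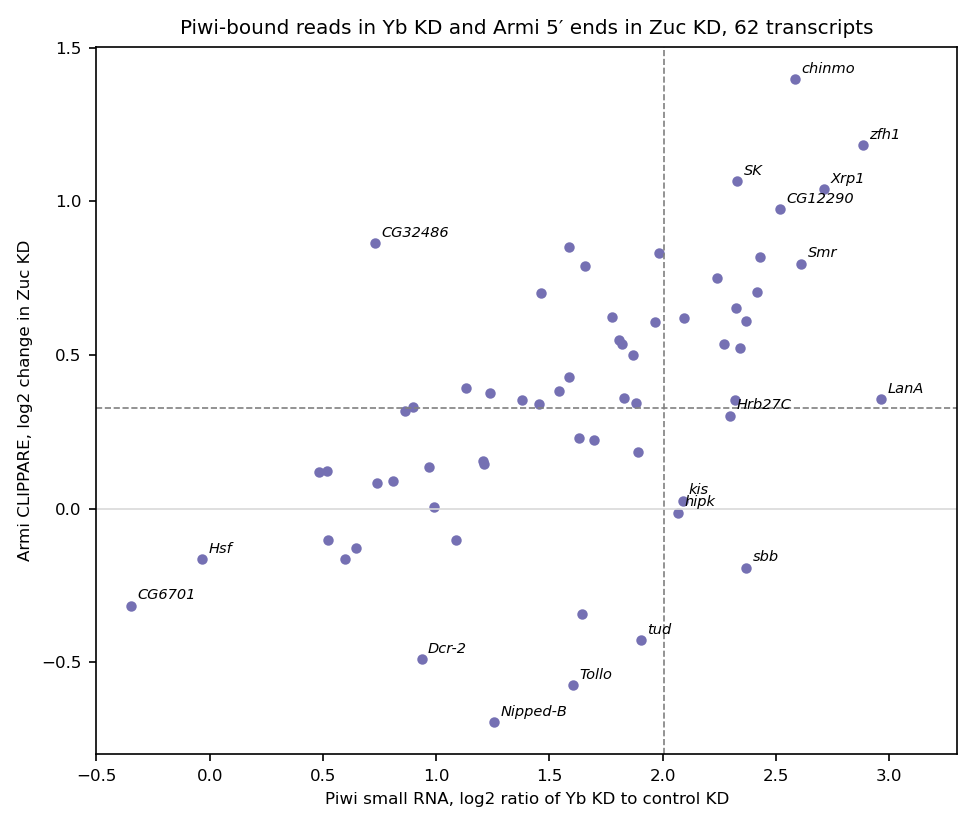
Log2 ratio of Piwi-bound RNA (library labelled Yb KD over control KD, 1 library each) on the x axis against the log2 change of Armi CLIPPARE signal in Zuc KD (2 libraries per condition) on the y axis, for the 62 transcripts; dashed lines mark the table medians of 2.00 and 0.33. chinmo, zfh1 and Xrp1 lie at the upper right, and CG6701 and Hsf at the left with Zuc KD changes of -0.32 and -0.16.

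By the roles their genes are known for, assigned once the names were known, 17 of the 62 encode transcription and chromatin factors. Their median log2 ratio was 1.83 in Piwi-bound RNA, 1.18 in D862A and 1.27 in R949A, and 15 and 16 of 17 were above WT in the mutants (86.7 and 86.8% of all tested). Both CLIPPARE calls fell in this set, 2 of 17 against 11.8% of all tested that rose. At an unadjusted limma p under 0.05, 5 of 17 were higher (24.4% of all tested) and 0 lower (6.14%). With libraries centred, 3 rose (9.46%) and 1 fell (14.2%). fs(1)h, a bromodomain protein, had 197 and 1066 RPM with Piwi and went from 70.6 and 114 RPM in control KD to 156 and 161 in Zuc KD, where all Zuc KD values were higher but the test was not passed (limma adjusted p = 0.121). kay, the fly Fos, ranked 54th of 62 with Piwi (405 and 676 RPM) and 18th in D862A (712 RPM in WT and 1619 in D862A). Its CLIPPARE groups overlapped, with 143 and 207 RPM in control KD and 174 and 191 in Zuc KD. mirr had 58.7 and 88.5 RPM in control KD and 130.01 and 128 in Zuc KD, and Smr 139 and 242 against 328 and 312. In both, Zuc KD lay above control without passing the test (limma adjusted p = 0.104 and 0.171). emc, an HLH protein that blocks other HLH factors, had 262, 715 and 777 RPM in WT, D862A and R949A, and bowl, an Odd-skipped family zinc finger protein, 211, 619.8 and 649. CrebA, a bZIP activator of secretory genes, had 463, 1163 and 1119 RPM. In contrast to these 3, kis, a chromatin remodeller of the CHD family, stayed at 761, 744 and 765 RPM, and CtBP at 668, 640.4 and 593. Hsf was near its WT level in D862A (77.0 and 88.6 RPM) and at 111 in R949A.

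RNA regulators and translation factors numbered 11, among them AGO1, the effector of microRNAs, the DEAD-box helicase Rm62, and Larp4B, listed as CG11505. With Piwi 11 of 11 were higher in the library labelled Yb KD, near the 93.6% of all tested, with a median log2 ratio of 1.91 against 2.00 over the table. In the mutants the median was 0.22 in D862A and 0.30 in R949A, and 7 of 11 were above WT in each (86.7 and 86.8% of all tested). AGO1 had 233 and 1126 RPM with Piwi and 1484, 1908 and 1930.0 in WT, D862A and R949A. Hrb27C had 5268, 7228 and 8275 RPM there, and Larp4B 3192, 3157 and 3155, hardly apart. Rm62 was the exception, with 505, 1591 and 1448 RPM. In CLIPPARE 0 of the 11 passed limma's test and 0 had an unadjusted p under 0.05, while with libraries centred, and by edgeR and DESeq2, Dcr-2 and tud fell. ps had 120.3 and 219.9 RPM in control KD and 283 and 282 in Zuc KD, with Zuc KD above, while elav, a neuronal RNA-binding protein, had 73.1 and 88.4 against 71.0 and 79.0, with overlap.

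Membrane, matrix and trafficking proteins numbered 15, of which 15 were higher with Piwi in the library labelled Yb KD (93.6% of all tested). Their medians were 1.61 with Piwi, 0.89 in D862A, 0.66 in R949A and 0.36 in CLIPPARE, where 0 passed limma's test, 3 were higher at an unadjusted p under 0.05 (24.4% of all tested), and with libraries centred, or by edgeR or DESeq2, SK rose and Tollo and kug fell. ptc had 122 and 634 RPM with Piwi and 89.1 and 136 RPM in control KD against 174 and 164 in Zuc KD, with no overlap. Gmap, a golgin, had 303 and 1434 RPM with Piwi and 79.9 and 147 against 179 and 187 RPM in CLIPPARE. In both genes Zuc KD lay above control, and neither passed the test. LanA, first with Piwi, was near WT in D862A (365 and 397 RPM). Vang, a core planar polarity protein, had 77.4 and 116 RPM in control KD and 94.2 and 96.0 in Zuc KD, with overlap.

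The other 19 transcripts, many without an assigned role, had medians of 1.21 with Piwi, 0.39 in D862A, 0.47 in R949A and 0.15 in CLIPPARE. Fs(2)Ket, which encodes importin beta, had 719.9 and 3598 RPM with Piwi. Its CLIPPARE values of 242 and 576 RPM in control KD enclosed those of 502 and 455 in Zuc KD. kel, the Kelch protein of ovarian ring canals, had 473 and 1623 RPM with Piwi and 594, 1029 and 941 in WT, D862A and R949A. Hipk, a homeodomain-interacting protein kinase listed as hipk, had 186 and 783 RPM with Piwi but 1279.8, 1496 and 1557 in these columns. CG9821 (aqz) went from 238 and 285 RPM in control KD CLIPPARE to 378 and 426 in Zuc KD, without overlap and without passing the test (limma adjusted p = 0.317). CG32486 likewise did not overlap, at 36.8 and 84.8 against 111 and 94.6 RPM (adjusted p = 0.0836).

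Genes known from the same pathways as Xrp1 and armi were read from fixed lists. The counts below stand beside the shares of all 4006 transcripts tested in CLIPPARE. By limma 11.8% rose and 2.77% fell, by edgeR 11.3 and 13.7%, and by DESeq2 5.82 and 10.9%. At an unadjusted limma p under 0.05, 24.4% were higher and 6.14% lower. No list was tested against these shares. Of the 12 stress response genes in the table, 9 were tested in CLIPPARE, where puc and Jra rose and none fell (limma, with a list median of 0.42; edgeR and DESeq2 each called 4). puc, a phosphatase that restrains JNK signalling, had 14.1 and 15.4 RPM in control KD and 36.4 and 45.9 in Zuc KD (log2 change 1.41, adjusted p = 0.00105). Jra, the fly Jun and partner of kay, had 3.58 and 4.46 RPM in control KD and 13.4 and 16.5 in Zuc KD (log2 change 1.66, adjusted p = 0.000282). Both are in the Low piRNA class. Of 23 RNA-binding and translation regulators tested, 3 rose and 3 fell, none of them among the 62 (9 called by edgeR and 8 by DESeq2). Of 7 piRNA pathway genes tested 0 passed (1 was higher at an unadjusted p under 0.05, and edgeR called 2 and DESeq2 1), and armi had a change of 0.34. Of 9 follicle cell and somatic gonad genes 4 rose, zfh1, bab1, bab2 and Fas3 (6 called by edgeR and 6 by DESeq2), and tj had a change of -0.70 (adjusted p = 0.398). Yb itself, fs(1)Yb, gave 29.5 RPM of Piwi-bound RNA in control KD against 44.5 in the library labelled Yb KD, a small RNA value that does not measure the knockdown. Of the lists without a member among the 62, 3 of 13 cytoskeleton genes rose by limma (6 called by edgeR and 2 by DESeq2), as did 5 of 9 heat shock and chaperone genes (6 and 2). Of 4 hemocyte markers 3 rose and 1 fell (4 and 3 called), and the part of such cells in the values of the 62 was not tested. 0 of 75 cytosolic ribosomal protein genes passed (1 higher at an unadjusted p under 0.05, 2 called by edgeR and 1 by DESeq2), and 0 of 2 germline markers (0 at an unadjusted p under 0.05, 1 and 1 called).

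Locus span, which the selection did not use, varied widely among the 62 transcripts. Locus spans in the tables ran from 950 to 112494 bases. The median span was 11612 bases, against 6789 for the High transcripts with less Armi, 7407 for those between and 2057 for all 12013, and 32 of 62 (51.6%) spanned at least 10 kb against 33.6, 40.0 and 13.0%. The median number of RefSeq transcripts per gene was 4, against 3, 4.5 and 2. RPM are not scaled to length, and the differences in span were not tested. Of the 62 symbols, 59 matched a single gene in the reference table, all protein coding. The selection had set aside chromosome 4 and unplaced sequence. Of the 62 transcripts, 11 lay on 2L, 12 on 2R, 15 on 3L, 11 on 3R and 13 on X. These are 17.7, 19.4, 24.2, 17.7 and 21.0%, against 18.4, 20.2, 19.8, 24.3 and 16.0% of all 12013.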

How the data were processed

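The authors deposited RPM for each FlyBase transcript, with 1 transcript per symbol. Per the submitters' processing notes, reads were trimmed with cutadapt and aligned with STAR to dm6; the counting step and the treatment of reads with several hits, of overlapping genes and of the antisense strand are not given in the sources used here, so signal of overlapping genes is uncertain. The loci follow another assembly than the reference table, so no positions are given. Within a column, 100% of values came out as whole reads (tolerance 0.1 of a read), which were recovered from the deposited RPM. After 107 repeated lines were dropped, 12013 transcripts had a symbol. The members, the gene lists and the tests were chosen with earlier results of these data known.

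Knockdown iCLIP and Myc-Armi iCLIP have 1 deposited column per condition for 2 libraries, so the planned test could not be run there, and ratios with exact conditional binomial intervals were computed instead, as for the Piwi libraries. CLIPPARE values of transcripts averaging 5 RPM or more were tested two-sided as log2(RPM + 1) by limma 3.58.1 (lmFit, eBayes with trend; R 4.3.3), with Benjamini-Hochberg adjustment and a threshold of 0.05; fold changes on that scale understate those of low transcripts, and p-values measure the spread between libraries that may be technical replicates. On simulated data of 4006 transcripts it recovered 68% of 2-fold and 97% of 4-fold changes with 9 false calls. The simulation drew noise independently for each transcript and library, without the shift seen between the control KD libraries. These shares therefore need not hold for the deposited values. edgeR 4.0.16 and DESeq2 1.42.0 on the recovered reads, centring, filters, pseudocounts and leaving out libraries were alternatives. Named were Xrp1, the 8 members highest in untreated Armi iCLIP, the 6 largest and 6 smallest ratios per comparison, members called by limma, members of a fixed list and those next to the limit, with others shown for their known role. Python 3.11.15 with pandas 2.3.3 and scipy 1.17.1 was used for the rest.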

Additional observations from a re-analysis of the deposited data

How the results depend on the processing

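Most of what changed with the processing concerns CLIPPARE, where the control KD libraries differ. Of the 62 transcripts, 2 rose and 0 fell as reported; 5 rose and 6 fell with libraries centred, with edgeR and with DESeq2, 5 rose without a trend, 1 rose with a filter of 20 RPM and 0 with no filter. Leaving out 1 library gave 0 to 47 that rose and 0 to 14 that fell, the extremes coming without control replicate 2 and without control replicate 1. With libraries also centred, an alternative added after seeing the data, it gave 0 to 18 that rose (11 without control replicate 1) and 0 to 20 that fell (9 without control replicate 2). Taking all transcripts with a value of at least 0 as members gave 1 that fell, of 87. Over all transcripts, 471 rose and 111 fell; DESeq2 gave 233 and 436, a filter of 20 RPM 153 and 58, no filter 52 and 8, and leaving out 1 library 17 to 1784 and 0 to 634 (with libraries also centred, 45 at the fewest that rose, and 788 and 848 that fell without control replicate 2 and 1), while centring gave 570 and edgeR 549 that fell. With the replicate number as a block, 0 of the 62 and 453 and 92 of all transcripts were called; the numbers are not shown to pair the libraries, since same-numbered libraries deviated from their group means with r = 0.049 over 4006 transcripts.

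The number of the 62 above the table median depended on the low transcripts that set that median. For Piwi it was 20, and 34 with a pseudocount of 5 RPM and 57 with no filter. For D862A it was 3, and 12, 48 and, with a filter of 20 RPM, 11 under these settings. For R949A it was 5, and 11, 48 and 11, with 2 at a pseudocount of 0.1 RPM and 3 among the 36 members past a limit of 1. The count for untreated cells was 52, and 36 with no filter, while it was 51 or 52 under the other settings. Single transcripts were followed in CLIPPARE under each alternative only if limma, limma with libraries centred, edgeR or DESeq2 had called them. Passing the threshold in some setting was thus fixed by that choice, and many passed or failed it depending on the setting. Of their log2 changes, 0 changed direction. The 76 values of single transcripts in the Piwi and Myc-Armi comparisons have no test, and each stayed within its counting interval under another pseudocount. Depth limits dp most, at 9.84 RPM of Piwi-bound RNA in control KD.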
